A study of Mus musculus with 9 samples.

Results

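Interferon-stimulated antiviral genes were followed across RAW 264.7 cells, a mouse macrophage line, by taking every probe set of the array whose annotation named 1 gene from a list of 43. Of these, 36 genes were measured, by 56 probe sets, out of 12393 genes and 22626 probe sets on the array. Isg15 and Ifi203 were represented by probe sets shared with other genes, and Ddx58, Dtx3l, Herc6, Ifi44 and Xaf1 were not analysed here. The interferon-induced GTPases and the IRF and STAT factors were not members. Total RNA came from 3 samples stimulated with bacterial lipopolysaccharide (LPS, 100 ng/ml for 18 h), 3 samples of cells labelled as overexpressing CstF-64 constitutively, and 3 untreated samples, with 1 Affymetrix array each. CstF-64, the product of Cstf2, is an RNA-binding subunit of the cleavage stimulation factor that helps form mRNA 3′ ends. All groups are the same tumour-derived line. The sources used here do not give the construct, the clonality of the CstF-64 cells or a vector control, nor whether the replicates were separate cultures, so the p-values refer to the spread among these arrays, part of which may be technical.

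LPS is sensed by TLR4, and the adaptor TRIF (Ticam1) leads from this receptor to the kinase TBK1, the factor IRF3 and interferon-β. Secreted interferon then acts on its receptor, and the kinases JAK1 and TYK2 activate a transcription factor complex containing STAT2 and IRF9 that binds the interferon-stimulated response element (ISRE) in the promoters of its target genes. The products of these genes sense, modify or destroy viral nucleic acid, tag proteins with the ubiquitin-like ISG15, or hold virions at membranes, and macrophages are known for a strong response of this kind to LPS.

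All arrays shared a trimmed mean. Their median intensities were lower on the LPS arrays, at 42.75 to 49.3, than on the CstF-64 and untreated arrays, at 51.1 to 54.2. The 10 macrophage marker genes were all measured above the background limit, an intensity of 31.2 set by bacterial control probe sets, and 6 of 6 T cell markers lay at or below it on all 9 arrays. LPS array 1 stood apart from its group, with correlations of 0.965 to 0.967 with the other LPS arrays, against 0.988 between those. CstF-64 array 1 correlated at 0.975 to 0.976 with the other CstF-64 arrays, against 0.989 between those, and the untreated arrays correlated at 0.982 to 0.986. The brighter Cstf2 probe set read 317.9, 361.5 and 394.5 on the CstF-64 arrays, against 397.8, 363.1 and 372.2 on the untreated arrays, so these groups overlapped (exact two-sided permutation p = 0.4, where 0.1 is the smallest possible). The dimmer Cstf2 probe set was lower on every CstF-64 array (97.1, 85.4 and 80.4) than on any untreated array (114.7, 100.2 and 134.1; exact permutation p = 0.1). The label of CstF-64 overexpression was thus not visible in the Cstf2 probe sets, although the array need not detect a transgene that lacks the probed sequence. The group is called CstF-64 below, as its label gives it.

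Most of the antiviral genes were higher after LPS. Of 56 member probe sets, 41 (73.2%), from 31 of 36 genes, rose and 1 fell, at an adjusted p under 0.05 in limma. Over all probe sets tested, 5.93% rose and 10.7% fell. The median log2 change of the member probe sets was 1.58 (range −0.58 to 5.37), against −0.04 over all probe sets. Changes are given on the scale of log2(intensity + 13), which understates those of dim probe sets. On this scale 37 member probe sets rose at least 2-fold. Of these, 1, a dim Rtp4 probe set, lay at or below the background limit on every array. In bulk RNA, more RNA per cell and more responding cells cannot be told apart.

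By its brightest probe set, each gene fell into a class of size. Log2 changes of 3 or more were seen for 13 genes, namely Rsad2, Rtp4, Ifit1, Zbp1, Oasl2, Cmpk2, Oasl1, Isg20, Ifit2, Ifit3, Bst2, Usp18 and Ifi204. Of these, Zbp1, Oasl2, Cmpk2, Ifit3 and Ifi204 were at or below the background limit on all untreated arrays, so their place in a class is nominal and their folds are given further on as lower bounds. Changes between 2 and 3 were seen for 4 genes (Ifih1, Trim30a, Dhx58 and Oas1a) and between 1 and 2 for 10. A further 8 lay between 0 and 1, and Pml lay below 0. No probe set of Eif2ak2, Ifitm3, Trim21, Pml or Daxx passed the test after LPS. Under other settings, Eif2ak2 passed with the replicate block (adjusted p = 0.0280), Ifitm3 with median centring or without dim probe sets (down to 0.0161), and both Trim21 probe sets with median centring (0.0450 and 0.0373). In the CstF-64 group, 2 member probe sets rose, both of Epsti1, where 0.102% of all probe sets rose.

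**Figure D1:**
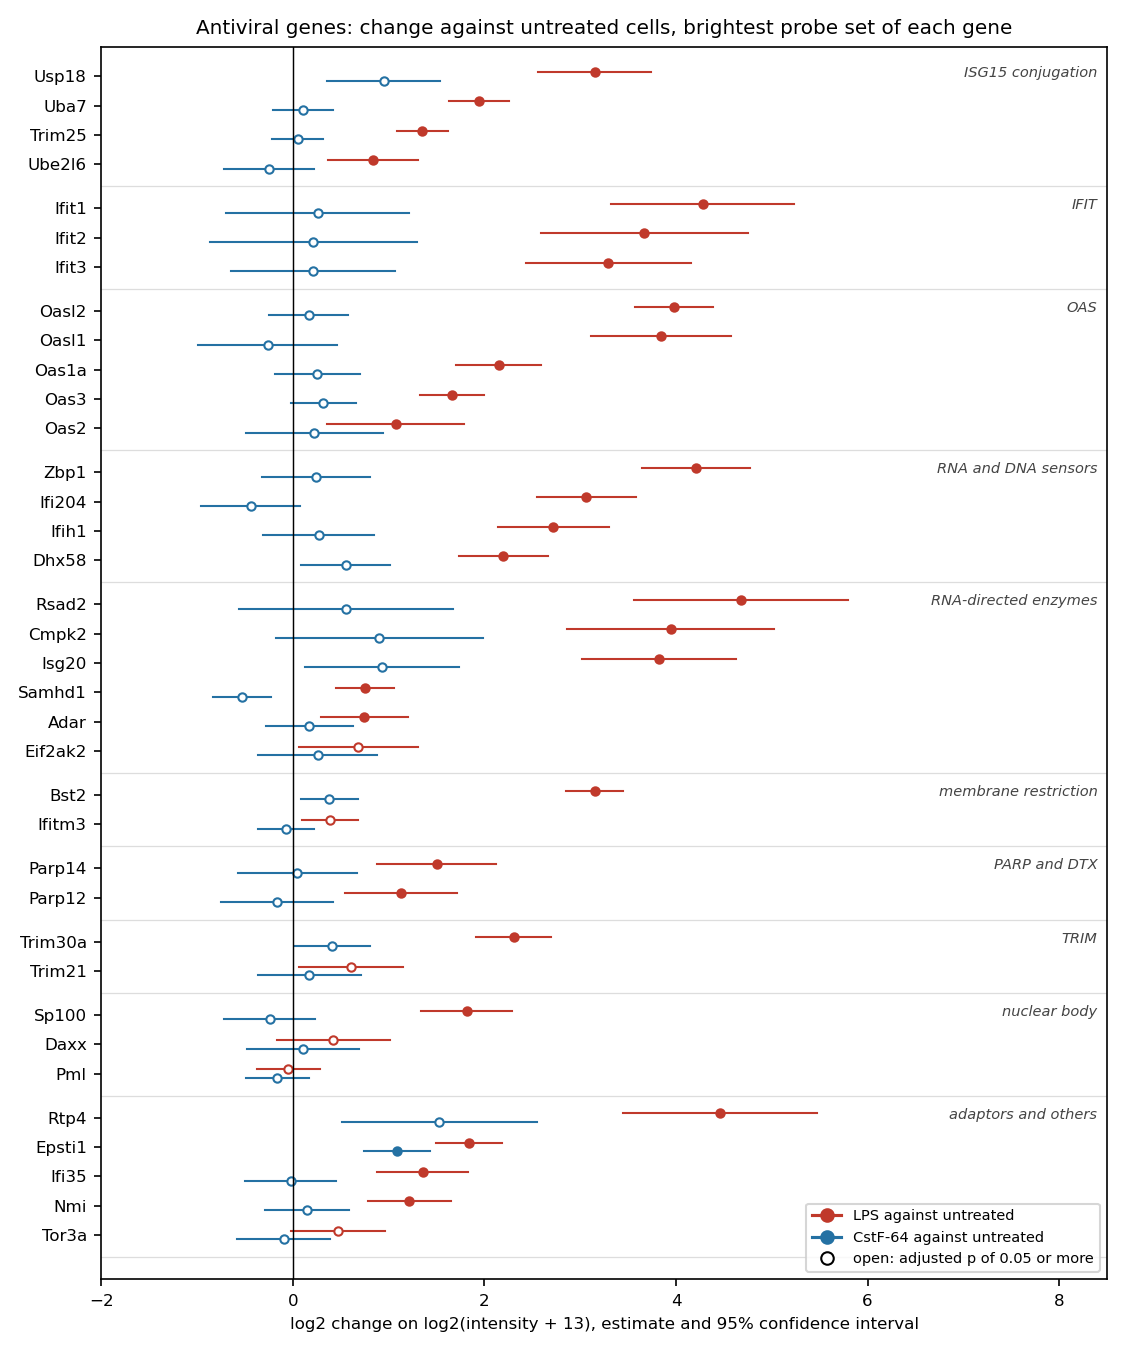
Log2 change of the brightest probe set of each of the 36 genes, with 95% confidence intervals, for LPS against untreated (red) and CstF-64 against untreated (blue), grouped by role. Open symbols did not reach an adjusted p under 0.05. The red symbols spread from about 0 for Pml to 4.68 for Rsad2, while every blue symbol but that of Epsti1 is open.

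The plot of changes by role shows both comparisons side by side; they share the untreated arrays, so the positions of their symbols are not independent. The largest red intervals belong to Rsad2, Ifit2 and Cmpk2, whose LPS arrays differed most among themselves.

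Promoter windows of 250 bases before to 50 after the start, from RefSeq on GRCm38.p6, were held for 35 of the 43 listed genes. The core letters of the ISRE, GAAANNGAA on either strand, stood in the windows of 17 of these 35 genes (48.6%), against 9.76% of all 27025 genes with a window. The letters TTCNNNGAA of the GAS element, known from the response to interferon-γ, stood in 9 genes (25.7%, against 9.55% of all genes), and the κB letters GGANNTTCC in 6 (17.1%, against 4.86%). These motifs were searched separately, and matches of different motifs may overlap. Among the genes with a window, which leaves out Rtp4 and Zbp1, the windows of the 5 with the largest fitted log2 change after LPS are shown. That of Pml is shown because its change was nearest to 0. The windows of the 5 differ in these letters. Capitals mark the ISRE core letters, which in these windows read on the opposite strand.
Rsad2: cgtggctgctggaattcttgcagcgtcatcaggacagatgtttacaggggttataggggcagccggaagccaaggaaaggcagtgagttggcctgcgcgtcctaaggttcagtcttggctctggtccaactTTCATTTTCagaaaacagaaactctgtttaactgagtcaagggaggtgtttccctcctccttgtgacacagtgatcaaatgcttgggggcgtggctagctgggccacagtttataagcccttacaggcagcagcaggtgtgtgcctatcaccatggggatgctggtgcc
Ifit1: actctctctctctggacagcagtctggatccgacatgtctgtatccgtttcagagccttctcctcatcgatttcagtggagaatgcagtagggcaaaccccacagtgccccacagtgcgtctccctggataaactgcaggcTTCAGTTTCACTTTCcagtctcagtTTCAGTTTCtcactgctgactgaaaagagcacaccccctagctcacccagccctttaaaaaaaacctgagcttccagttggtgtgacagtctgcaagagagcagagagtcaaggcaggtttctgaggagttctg
Oasl2: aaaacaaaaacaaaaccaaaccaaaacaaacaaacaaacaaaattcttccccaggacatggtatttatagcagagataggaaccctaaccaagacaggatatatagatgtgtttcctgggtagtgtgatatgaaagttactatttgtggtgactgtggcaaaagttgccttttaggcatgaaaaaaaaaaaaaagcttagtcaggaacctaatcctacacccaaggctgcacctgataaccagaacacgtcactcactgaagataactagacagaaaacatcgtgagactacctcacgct
Cmpk2: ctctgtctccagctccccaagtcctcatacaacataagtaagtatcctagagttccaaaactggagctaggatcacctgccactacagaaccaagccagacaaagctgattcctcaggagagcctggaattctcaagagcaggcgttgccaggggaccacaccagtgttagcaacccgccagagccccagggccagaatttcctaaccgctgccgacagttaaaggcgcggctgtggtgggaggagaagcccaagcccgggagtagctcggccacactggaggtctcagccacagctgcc
Oasl1: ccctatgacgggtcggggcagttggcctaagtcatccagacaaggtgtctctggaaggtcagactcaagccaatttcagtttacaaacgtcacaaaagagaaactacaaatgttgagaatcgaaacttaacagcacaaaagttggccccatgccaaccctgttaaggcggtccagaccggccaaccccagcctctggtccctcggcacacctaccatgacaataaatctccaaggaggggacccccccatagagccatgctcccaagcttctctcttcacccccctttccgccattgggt
Pml: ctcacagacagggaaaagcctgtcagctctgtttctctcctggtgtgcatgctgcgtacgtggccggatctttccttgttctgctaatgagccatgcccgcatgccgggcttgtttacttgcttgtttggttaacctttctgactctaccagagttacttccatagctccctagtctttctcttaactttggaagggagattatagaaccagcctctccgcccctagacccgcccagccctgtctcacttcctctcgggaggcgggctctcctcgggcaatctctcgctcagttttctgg

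The Rsad2 window (chr12:26456403-26456702, minus strand) holds 1 match, which begins 119 bases before the start. The Ifit1 window (chr19:34640639-34640938, plus strand) holds 3, which begin 109, 103 and 84 bases before the start, and the first and second share letters. The windows of Oasl2 (chr5:114896684-114896983, plus strand), Cmpk2 (chr12:26468965-26469264, plus strand), Oasl1 (chr5:114922990-114923289, plus strand) and Pml (chr9:58249737-58250036, minus strand) hold none. The 13 measured genes with the ISRE letters in a window had a median log2 change after LPS of 2.15 (0.39 to 4.68), and 10 of them rose. The 15 measured genes without them had a median of 1.81 (−0.05 to 3.98), and 13 rose. Presence of these letters in the short window therefore did not separate the genes that rose from those that did not. Several members are close neighbours. By the first coordinates of their windows, Rsad2 and Cmpk2, on opposite strands, lie 12.6 kb apart. In the same measure Ifit2 and Ifit3 lie 32.8 kb apart, Ifit3 and Ifit1 57.4 kb, and Oasl2 and Oasl1 26.3 kb.

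The ISG15 conjugation group covers the enzymes that attach the ubiquitin-like ISG15 to proteins and remove it. All 4 measured genes rose after LPS, in 6 of 8 probe sets. Usp18, the protease that removes ISG15 and also damps interferon receptor signalling, read 1111.4, 704.4 and 817.5 on the LPS arrays, 252.7, 143.2 and 152.7 on the CstF-64 arrays and 120.2, 81.2 and 63.5 on the untreated arrays. Every LPS array lay above all other arrays, and every CstF-64 array above every untreated one. The log2 change was 3.15 (SE 0.27, limma adjusted p = 5.02e-05) for LPS against untreated, and 0.95 (SE 0.27, adjusted p = 0.403) for CstF-64 against untreated.

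Uba7, the E1 enzyme that activates ISG15, averaged 417 ± 26.5 after LPS, 107 ± 11.9 in CstF-64 cells and 99.1 ± 14.1 in untreated cells by its brightest probe set (SD, n = 3 each). The single LPS values were 391.9, 444.7 and 414.8, far from the untreated 83.7, 111.5 and 102.1, and CstF-64 (93.9, 116.4 and 112.1) overlapped untreated. Its change after LPS was 1.95 (SE 0.14, adjusted p = 1.92e-05), and another Uba7 probe set rose by 1.72 (adjusted p = 0.000101) with LPS values of 145.6, 163.3 and 163.3 against 37.8, 42.4 and 36.5 in untreated cells. The remaining Uba7 probe set, 157.7, 114.6 and 84.3 after LPS against 70.9, 111.8 and 84.1 untreated, overlapped between the groups (0.35, adjusted p = 0.351). The probe sets of this gene thus disagreed.

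Trim25, a ubiquitin ligase that acts on RIG-I and also carries out ISG15 conjugation, gave the same change of 1.35 by a pair of probe sets. The brighter of them read 1861.1, 1469.7 and 1684.2 after LPS, 662.1, 651.5 and 690.2 in CstF-64 cells and 597.6, 630.0 and 708.8 in untreated cells (adjusted p = 6.65e-05 for LPS against untreated). The other of the pair read 1933.5, 1294.4 and 1303.8 after LPS and 564.1, 567.2 and 597.2 untreated (adjusted p = 0.000429). A dimmer probe set, at 656.8, 276.5 and 202.1 after LPS and 87.9, 172.0 and 164.4 untreated, did not overlap either but missed the threshold (1.22, SE 0.39, adjusted p = 0.0588), with LPS array 1 more than 2-fold above the others of its group. Ube2l6, the E2 enzyme of the pathway, rose by 0.83 (SE 0.21, adjusted p = 0.0234), to 98.8, 76.0 and 69.0 against 51.9, 31.7 and 36.6 in untreated cells. Its call was lost under 3 of 19 other settings of the fit, among them that without LPS array 1 (adjusted p = 0.0587).

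All 3 measured IFIT genes, whose proteins bind viral RNA ends or the translation machinery, rose. Ifit1, which recognises RNA lacking the host cap methylation, read 1686.2, 546.8 and 613.5 after LPS, 66.8, 25.8 and 31.8 in CstF-64 cells and 43.8, 19.4 and 31.1 in untreated cells. LPS array 1 was more than 2-fold above the other LPS arrays, yet all LPS arrays lay far above the rest. The change was 4.28 (SE 0.43, adjusted p = 0.000144). Ifit2 read 1424.6, 335.9 and 452.6 after LPS, 76.4, 28.3 and 34.9 in CstF-64 cells and 48.8, 32.1 and 27.7 in untreated cells (3.67, SE 0.48, adjusted p = 0.000781). Its fold of 12.7 became 8.33 without LPS array 1. Ifit3 was at or below the background limit on all untreated arrays and reached 668.1, 206.3 and 231.4 after LPS, at least 10.2-fold above that limit as a geometric mean (adjusted p = 0.000368). "At least" is used in this sense below. These bounds are over all 3 LPS arrays, LPS array 1 included, and were not computed without it. For these 3 genes the CstF-64 and untreated arrays overlapped.

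The 5 OAS genes, which encode oligoadenylate synthetases that switch on RNase L and their synthetase-like relatives, all rose. Oasl2 read 352.2, 443.8 and 405.5 after LPS, 19.9, 13.9 and 15.5 in CstF-64 cells and 15.8, 16.0 and 8.4 in untreated cells. It was at or below the background limit in both groups without LPS and at least 12.8-fold higher after LPS than in either (log2 change 3.98 against untreated, SE 0.18, adjusted p = 2.17e-06). Unlike most members it was lowest on array 1 among the LPS arrays. Oasl1, known in mouse cells as a brake on IRF7 translation, read 3005.8, 1440.2 and 1483.6 after LPS, 155.0, 82.1 and 67.3 in CstF-64 cells and 138.2, 99.8 and 117.4 in untreated cells (3.84, SE 0.33, adjusted p = 5.16e-05). Here too the CstF-64 and untreated arrays overlapped, as they did for every OAS gene.

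The other 3 genes of this group, Oas1a, Oas3 and Oas2, changed less. Oas1a rose by 2.15 (SE 0.20, adjusted p = 8.96e-05), averaging 1487 ± 269 after LPS, 390 ± 70.5 in CstF-64 cells and 328 ± 82.7 in untreated cells (SD, n = 3 each). Oas3 rose by 1.66 (SE 0.15, adjusted p = 7.8e-05). Oas2 rose by 1.07 (SE 0.32, adjusted p = 0.0474), with 450.7, 233.4 and 210.7 after LPS against 151.7, 104.0 and 129.4 in untreated cells. Its call was lost under 9 of 19 other settings of the fit, among them that without LPS array 1 (adjusted p = 0.123).

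**Figure D2:**
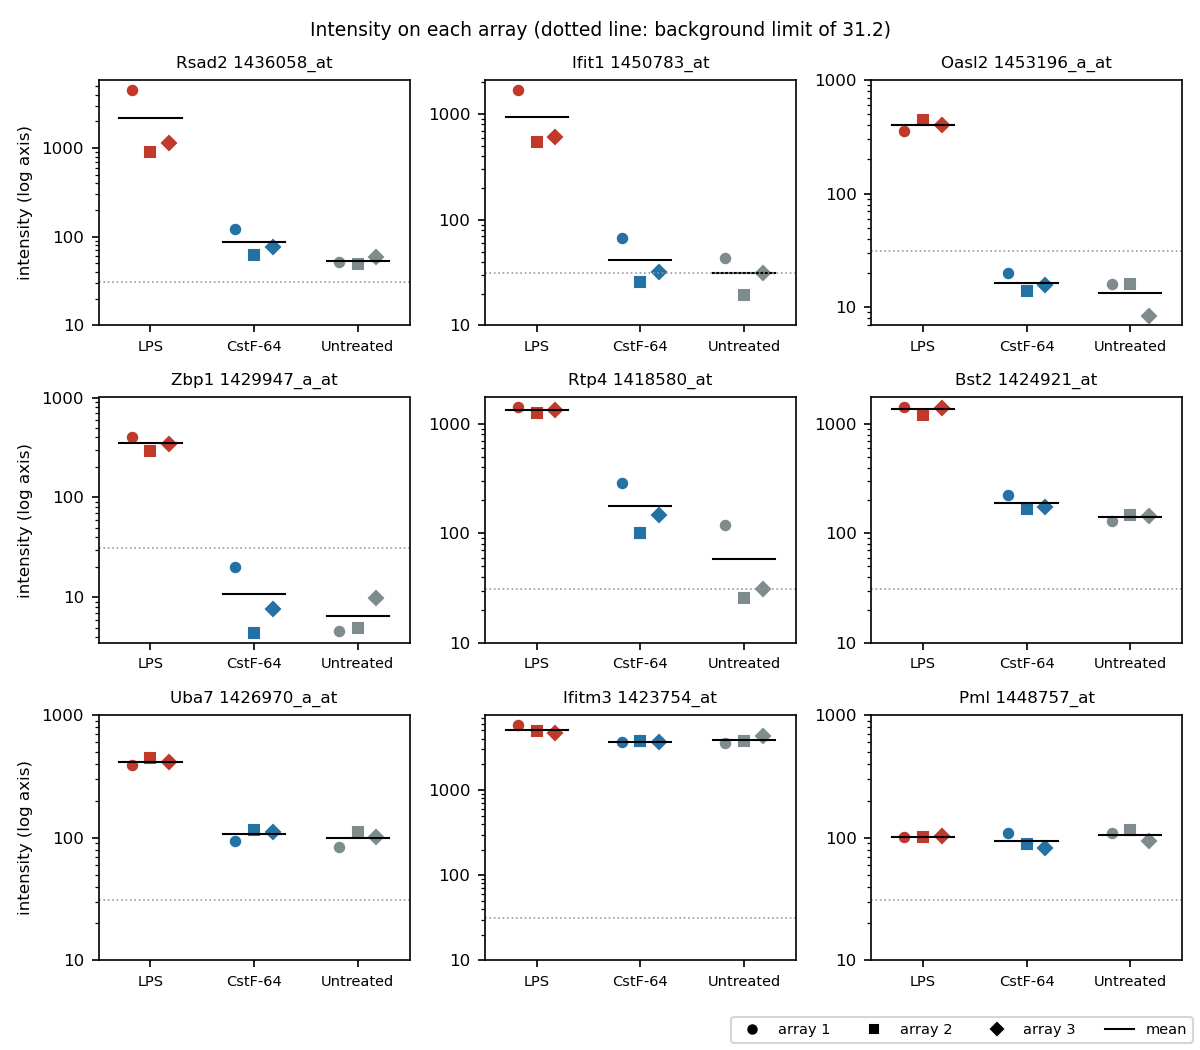
Intensity on each of the 9 arrays, on a log axis, for 9 genes by their brightest probe set; circles, squares and diamonds are arrays 1, 2 and 3 of a group, lines are group means, and the dotted line is the background limit of 31.2. Oasl2 and Zbp1 lie below the limit without LPS, Rsad2 and Ifit1 are much higher on LPS array 1 than on the other LPS arrays, and the Pml values of the 3 groups overlap.

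The plot of intensities by array shows the range of behaviours within the group of genes. Uba7, Bst2, Rtp4 and Oasl2 had LPS arrays close to each other, whereas the LPS arrays of Rsad2 and Ifit1 were spread out. Ifitm3 was the brightest of the 9 on the untreated arrays and differed least between LPS and untreated cells after Pml.

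All 4 measured genes of nucleic acid sensing rose after LPS, in 6 of 7 probe sets. Zbp1, a sensor of Z-form nucleic acid that can trigger necroptosis, read 406.3, 295.0 and 343.6 after LPS, 20.1, 4.4 and 7.7 in CstF-64 cells and 4.6, 5.0 and 9.9 in untreated cells. The gene was at or below the background limit without LPS and at least 11.1-fold higher with it (log2 change 4.21, SE 0.25, adjusted p = 7.32e-06). Its other probe set rose at least 5.74-fold (adjusted p = 2.04e-05). Ifi204, a DNA-binding member of the HIN-200 family, read 242.4, 160.6 and 147.1 after LPS, 7.1, 0.5 and 4.8 in CstF-64 cells and 11.3, 6.7 and 12.3 in untreated cells, at least 5.73-fold higher after LPS (adjusted p = 2.38e-05). By these probe sets both genes were above the limit after LPS and not on any other array. A probe set that Ifi204 shares with Mndal, Ifi211 and Ifi205 read 78.2 to 122.6 on the CstF-64 arrays and 80.9 to 130.3 on the untreated arrays, and which of these genes gave that signal was not tested. Ifih1, which encodes the double-stranded RNA sensor MDA5, rose by 2.72 (SE 0.26, adjusted p = 0.000105), to 621 ± 228 after LPS against 101 ± 29.8 in CstF-64 cells and 79.8 ± 8.6 in untreated cells (SD, n = 3 each).

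Dhx58, which encodes LGP2, a helicase that tunes MDA5 and RIG-I, was measured by 3 probe sets. The brightest read 534.0, 305.3 and 300.4 after LPS, 97.1, 112.0 and 116.8 in CstF-64 cells and 66.6, 67.1 and 76.1 in untreated cells. The 3 groups did not overlap, and the changes were 2.20 for LPS (SE 0.21, adjusted p = 0.000102) and 0.55 for CstF-64 (SE 0.21, adjusted p = 0.662) against untreated. Another probe set read 86.1, 80.1 and 44.1 after LPS and was at or below the limit in untreated cells (at least 2.16-fold, adjusted p = 0.0039). The third, at 50.8, 47.8 and 42.8 after LPS and 44.9, 41.0 and 36.5 untreated, did not pass the test (0.16, adjusted p = 0.633).

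Of the 6 enzymes directed at RNA or nucleotides, 5 rose by at least 1 probe set. Rsad2 encodes viperin, a radical SAM enzyme that makes a chain-terminating nucleotide, and had the largest change of all members. Its brightest probe set read 4547.3, 907.8 and 1136.4 after LPS, 122.8, 62.8 and 75.9 in CstF-64 cells and 51.8, 49.2 and 58.7 in untreated cells (log2 change 4.68, SE 0.50, adjusted p = 0.000222). LPS array 1 was 4.45 times the mean of the other LPS arrays, every LPS array was far above the other groups, and every CstF-64 array was above every untreated one. A dimmer Rsad2 probe set rose at least 44.1-fold (3509.5, 732.1 and 1012.8 after LPS against 14.7, 23.6 and 24.8 untreated, adjusted p = 9.12e-05), and the remaining one rose by 4.76 (adjusted p = 6.56e-05). Without LPS array 1 the fold of the brightest probe set was 15.6 instead of 25.6.

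Cmpk2, the mitochondrial nucleotide kinase next to Rsad2, followed a similar course. It read 876.4, 176.4 and 199.0 after LPS, 26.8, 24.8 and 29.7 in CstF-64 cells and 10.7, 7.6 and 7.1 in untreated cells. All arrays without LPS were below the background limit, and the gene was at least 10.04-fold higher after LPS (log2 change 3.94, SE 0.48, adjusted p = 0.000505). That bound rests on all LPS arrays, with array 1 far above arrays 2 and 3. On the log2(intensity + 13) scale the fold was 15.4, or 9.36 without LPS array 1, which is under the bound. Its other probe set rose at least 5.23-fold (adjusted p = 0.00697). Isg20, a 3′ to 5′ exonuclease, read 1152.5, 416.9 and 459.5 after LPS, 48.0, 81.1 and 87.6 in CstF-64 cells and 34.0, 22.5 and 36.8 in untreated cells. These groups did not overlap, with changes of 3.83 (SE 0.36, adjusted p = 9.46e-05) for LPS and 0.93 (SE 0.36, adjusted p = 0.671) for CstF-64 against untreated.

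Samhd1, the triphosphohydrolase that lowers the deoxynucleotide pool, was the one gene whose probe sets were called in opposite directions. The brightest read 888.9, 662.2 and 638.8 after LPS, 302.0, 290.2 and 273.8 in CstF-64 cells and 428.7, 407.4 and 434.6 in untreated cells. It rose after LPS by 0.75 (SE 0.13, adjusted p = 0.00444), and its CstF-64 arrays lay below all untreated arrays without passing the test (−0.53, SE 0.13, adjusted p = 0.31). Another probe set read 168.9, 162.8 and 129.0 after LPS, 213.0, 147.0 and 152.6 in CstF-64 cells and 268.1, 231.8 and 206.4 in untreated cells, and fell by 0.58 after LPS (SE 0.17, adjusted p = 0.0481). This fall was the 1 lower call among the members. It was lost under 11 of 19 other settings of the fit, among them quantile normalization and median centring. It was also lost whenever a single LPS or untreated array was left out (adjusted p = 0.0530 without LPS array 1). The remaining pair of probe sets, at 193.0, 116.6 and 144.2 and at 272.2, 123.8 and 191.6 after LPS, overlapped the untreated arrays and passed no test (adjusted p = 0.156 and 0.894).

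Adar, the adenosine deaminase of double-stranded RNA, rose by 0.74 (SE 0.20, adjusted p = 0.0327), reaching 503.5, 382.6 and 327.9 after LPS against 294.6, 202.8 and 210.0 in untreated cells. The call was lost under 4 of 19 other settings of the fit, among them that without LPS array 1 (adjusted p = 0.0889). Eif2ak2, which encodes the translation-blocking kinase PKR, read 230.1, 126.1 and 111.9 after LPS and 99.5, 84.8 and 79.5 untreated by its brighter probe set. These values did not overlap, but the change of 0.68 did not pass the test (SE 0.28, adjusted p = 0.131), nor did the 0.47 of its other probe set (adjusted p = 0.246).

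Of the pair of membrane proteins, 1 rose. Bst2, or tetherin, which holds budding virions at the cell surface, read 1440.5, 1219.0 and 1411.1 after LPS, 222.6, 167.3 and 174.7 in CstF-64 cells and 131.1, 146.9 and 145.1 in untreated cells. The groups did not overlap, and the change after LPS was 3.15 (SE 0.13, adjusted p = 1.31e-06), the lowest adjusted p among the members. For CstF-64 it was 0.38 (SE 0.13, adjusted p = 0.61). Ifitm3, which blocks viral fusion in endosomes, read 5844.6, 4903.4 and 4613.8 after LPS, 3704.2, 3726.3 and 3665.8 in CstF-64 cells and 3606.9, 3761.7 and 4344.0 in untreated cells. Its LPS arrays lay just above the untreated ones, by 0.39 (95% confidence interval 0.09 to 0.68, adjusted p = 0.0753).

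Both measured PARP genes rose. Parp14, an ADP-ribosyltransferase, read 429.6, 213.9 and 198.9 after LPS, 115.8, 75.4 and 77.9 in CstF-64 cells and 94.1, 92.2 and 70.3 in untreated cells (1.50, SE 0.28, adjusted p = 0.00525). Parp12, a zinc-finger member of the same family, read 932.1, 458.4 and 447.5 after LPS, 265.2, 196.1 and 226.0 in CstF-64 cells and 283.0, 280.7 and 212.8 in untreated cells (1.13, SE 0.26, adjusted p = 0.016). LPS array 1 was 2.08 times the mean of the other LPS arrays for Parp14 and 2.06 times for Parp12, and CstF-64 overlapped untreated for both.

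Of the TRIM genes, Trim30a rose and Trim21 did not pass the test. Trim30a, a mouse regulator of TLR signalling, read 816.2, 507.8 and 528.6 after LPS, 139.2, 159.4 and 161.4 in CstF-64 cells and 107.8, 110.8 and 117.0 in untreated cells. Its groups did not overlap, with changes of 2.30 for LPS (SE 0.17, adjusted p = 2.43e-05) and 0.41 for CstF-64 (SE 0.17, adjusted p = 0.747). The other Trim30a probe set gave 2.43 (adjusted p = 1.04e-05) and 0.66 (adjusted p = 0.253). Trim21, the cytosolic antibody receptor, read 142.0, 80.4 and 69.9 after LPS, 83.0, 64.7 and 52.8 in CstF-64 cells and 53.7, 59.9 and 57.5 in untreated cells by its brighter probe set (0.60, SE 0.24, adjusted p = 0.129).

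Of the 3 genes of the PML nuclear body, 1 rose. Sp100 read 311.0, 216.6 and 243.0 after LPS, 61.1, 48.6 and 44.7 in CstF-64 cells and 75.0, 44.0 and 74.2 in untreated cells, and rose by 1.81 (SE 0.21, adjusted p = 0.000382). Daxx, a histone H3.3 chaperone, read 746.5, 339.0 and 397.4 after LPS, 414.7, 382.3 and 322.5 in CstF-64 cells and 378.7, 390.3 and 275.6 in untreated cells, with overlapping groups (0.42, adjusted p = 0.341). Pml, which scaffolds the body, read 100.4, 101.9 and 103.3 after LPS, 109.7, 88.7 and 83.0 in CstF-64 cells and 109.4, 115.7 and 93.5 in untreated cells. Its change after LPS was −0.05 (95% confidence interval −0.38 to 0.28, adjusted p = 0.881), an interval that excludes a 2-fold change in either direction.

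All 5 measured genes of the group of adaptors and others rose by at least 1 probe set. Rtp4, a receptor transport protein that also acts against flaviviruses, read 1414.0, 1254.8 and 1316.8 after LPS, 285.5, 101.5 and 146.0 in CstF-64 cells and 119.5, 25.9 and 30.9 in untreated cells. LPS arrays lay far above the rest, while untreated array 1 was more than 3-fold above its group and overlapped the CstF-64 range. The change was 4.46 for LPS (SE 0.46, adjusted p = 0.000161) and 1.53 for CstF-64 (SE 0.46, adjusted p = 0.458). A second Rtp4 probe set was called as well but lay below the background limit on every array, so no fold is given. Ifi35 and Nmi, partner proteins of similar structure, rose by 1.36 (SE 0.21, adjusted p = 0.00215) and 1.22 (SE 0.19, adjusted p = 0.0024).

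Tor3a, an ATPase of the torsin family, was called by 1 of its pair of probe sets. This one read 271.9, 235.6 and 228.6 after LPS, 189.1, 145.4 and 149.4 in CstF-64 cells and 140.9, 187.5 and 167.3 in untreated cells (0.54, SE 0.15, adjusted p = 0.0356). Its call was lost under 8 of 19 other settings of the fit, among them that without LPS array 1 (adjusted p = 0.0824). The other read 274.9, 256.3 and 212.9 after LPS, 148.9, 166.4 and 172.4 in CstF-64 cells and 114.5, 218.8 and 209.8 in untreated cells, and its LPS and untreated arrays overlapped (0.47, adjusted p = 0.19).

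LPS array 1 was the highest LPS array for 36 of the 41 member probe sets that rose (87.8%), against 49.8% of all probe sets. The ratio of array 1 to the mean of LPS arrays 2 and 3 had a median of 1.46 over these 41 probe sets (0.683 to 5.66), against 1.12 over all 1341 probe sets that rose. It was 2 or more for 13 probe sets, those of Ifit1, Ifit2, Ifit3, Oas2, Oasl1, Isg20, Cmpk2, Rsad2, Parp12 and Parp14, and under 1 for 5, among them both called probe sets of Uba7 and those of Oas3 and Oasl2. Over all 1341 probe sets that rose, the ratio was 2 or more for 107 and under 1 for 476. The members thus differed in how far array 1 stood above its group. Array 1 was also the highest CstF-64 array for 24 of these 41 probe sets (58.5%, against 37.5% of all probe sets) and the highest untreated array for 18 (43.9%, against 36.5%). The ratio of 3′ to 5′ probe sets of actin was 1.18 on LPS array 1, against 1.11 and 1.14 on the other LPS arrays, 1.22 on CstF-64 array 1, against 1.06 and 1.09 on the others, and 1.20 on untreated array 1, against 1.11 and 1.03. That of Gapdh was lowest on LPS array 1 within its group, at 0.806 against 0.831 and 0.844, and highest on CstF-64 array 1 (0.879, against 0.851 and 0.818) and untreated array 1 (0.867, against 0.810 and 0.792). Their part in these results was not tested. Without LPS array 1, 37 member probe sets rose and none fell, and the fold fell by more than 1.5 times for 6 probe sets, those of Rsad2, Cmpk2 and Ifit2.

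**Figure D3:**
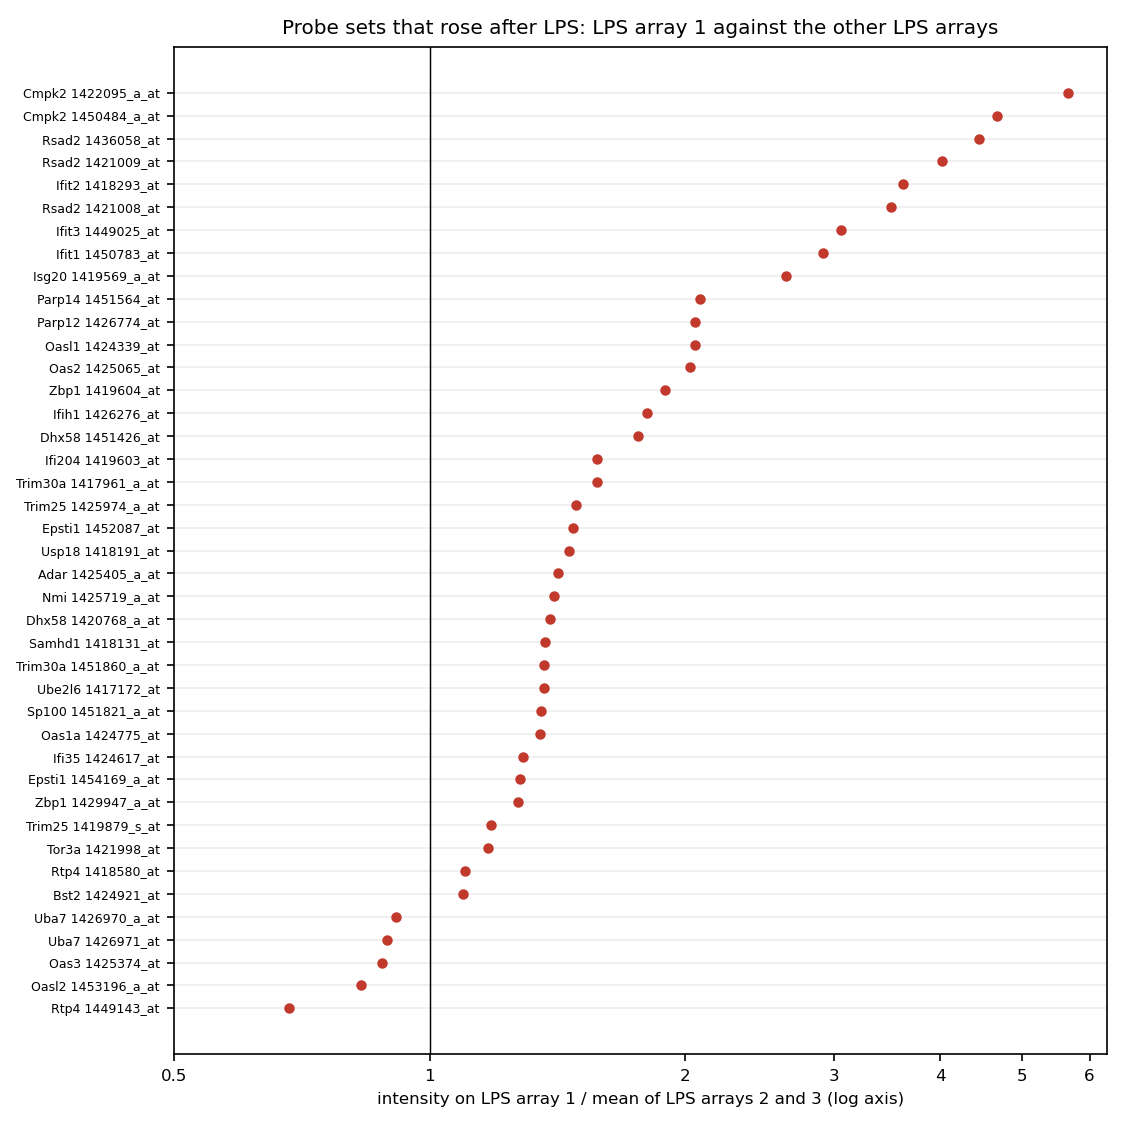
Ratio of the intensity on LPS array 1 to the mean of LPS arrays 2 and 3 for the 41 member probe sets that rose after LPS, on a log axis. The ratios run from 0.683 to 5.66, with the 3 Rsad2 and both Cmpk2 probe sets among the highest.

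The plot of these ratios orders the probe sets by the spread within the LPS group, and a wide spread there enters the error of the change. By their brightest probe sets, the log2 changes of Rsad2, Cmpk2 and Ifit2 had standard errors of 0.50, 0.48 and 0.48, against 0.14, 0.18, 0.13 and 0.15 for Uba7, Oasl2, Bst2 and Oas3.

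Few of the antiviral genes passed the test in CstF-64 cells. Of the 56 probe sets, 2 rose (3.57%) and none fell, and over all probe sets 23 (0.102%) rose and 33 (0.146%) fell. At an unadjusted p under 0.05, 9 of the 56 member probe sets were higher and 2 lower. Over all probe sets, 3.18% were higher and 3.27% lower. The median log2 change was 0.22 (−0.53 to 1.53), against 0.00 over all probe sets, and was 0.10 without CstF-64 array 1. All 3 CstF-64 arrays lay above all 3 untreated arrays for 15 member probe sets (26.8%) and below them for 1, against 6.67% and 6.18% of all probe sets. These 15 came from 10 genes, namely Usp18, Dhx58, Zbp1, Isg20, Cmpk2, Rsad2, Bst2, Trim21, Trim30a and Epsti1, and 3 of them were at or below the background limit in both groups.

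Both called probe sets belong to Epsti1, an interferon-responsive gene first described in breast cancer cells grown with stromal cells. The brightest read 620.1, 397.0 and 443.5 after LPS, 271.5, 286.9 and 276.3 in CstF-64 cells and 122.5, 123.8 and 126.1 in untreated cells. The groups did not overlap, and both CstF-64 and untreated arrays were tight, at 278 ± 7.88 and 124 ± 1.82 (SD, n = 3 each). The change was 1.84 for LPS (SE 0.15, adjusted p = 4.94e-05) and 1.09 for CstF-64 (SE 0.15, adjusted p = 0.0197) against untreated.

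The next Epsti1 probe set read 211.7, 172.9 and 158.3 after LPS, 89.9, 107.8 and 120.1 in CstF-64 cells and 32.7, 39.3 and 42.1 in untreated cells. Again the groups did not overlap, with changes of 1.92 (SE 0.17, adjusted p = 5.94e-05) and 1.22 (SE 0.17, adjusted p = 0.0163). The third read 113.1, 58.8 and 62.4 after LPS, 51.8, 53.3 and 55.3 in CstF-64 cells and 39.0, 45.7 and 48.9 in untreated cells and passed neither test (0.62, adjusted p = 0.0889, and 0.21, adjusted p = 0.995), although its groups did not overlap either. Leaving out any 1 of the untreated arrays, or CstF-64 array 2 or 3, ended both CstF-64 calls, with adjusted p of up to 0.116 and 0.109, while both were kept without CstF-64 array 1.

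**Figure D4:**
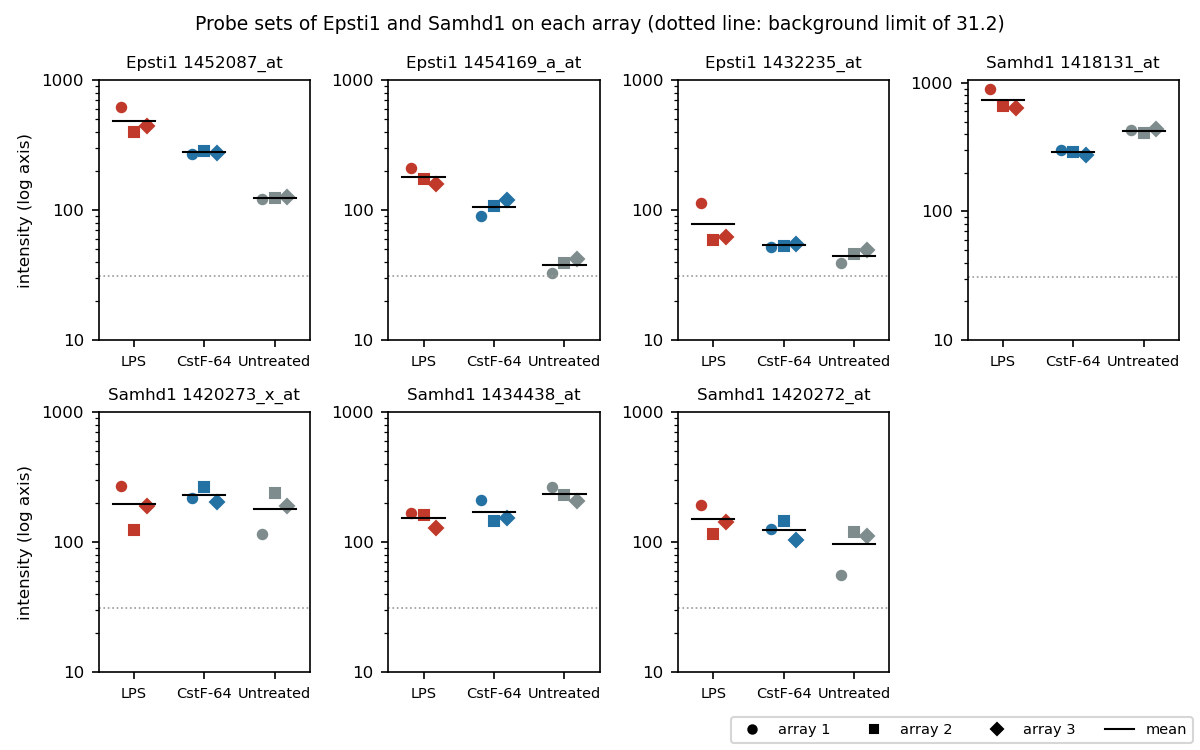
Intensity on each array for the 3 Epsti1 and 4 Samhd1 probe sets, in LPS, CstF-64 and untreated cells. The CstF-64 arrays lie between the LPS and untreated arrays for all 3 Epsti1 probe sets, with the smallest gaps in the dimmest, and the Samhd1 probe sets differ from each other in the order of the groups.

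The plot of Epsti1 and Samhd1 sets side by side a gene whose probe sets ranked the groups alike by their means and one whose probe sets did not. For the brightest Samhd1 probe set CstF-64 cells were lowest, and for the probe set that fell after LPS they lay between LPS and untreated cells by their means.

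Set directly against CstF-64 cells, LPS cells were higher for 40 of 56 member probe sets (71.4%), from 30 genes, and lower for none (0 also at an unadjusted p under 0.05 in limma), against 5.79% higher and 9.43% lower over all probe sets. The median log2 difference was 1.32 (−0.27 to 4.72), against −0.05 over all probe sets. This comparison shares the LPS arrays with the first and the CstF-64 arrays with the second. Rsad2 was higher by 4.12 (SE 0.50, adjusted p = 0.000529), Oasl1 by 4.11 (SE 0.33, adjusted p = 3.72e-05) and Rtp4 by 2.93 (SE 0.46, adjusted p = 0.00217). Epsti1 was higher in LPS cells too, by 0.75 (SE 0.15, adjusted p = 0.00954). Ifitm3 passed the test here (0.46, SE 0.13, adjusted p = 0.0422), a call lost under 11 of 19 other settings of the fit, among them every one that left out an LPS or CstF-64 array. Oas2 (0.85, adjusted p = 0.114) and Adar (0.58, adjusted p = 0.0918) did not pass, though Oas2 did under 4 of the 19 settings and Adar under 3, the replicate block among them for both.

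The genes of the pathway around these members were read by 1 probe set each, the brightest. Among the ligands, 8 of 12 listed interferon genes were measured, none was called by limma after LPS (0 higher and 2 lower at an unadjusted p under 0.05), and 6 lay at or below the background limit on all 9 arrays. Ifnb1, which encodes interferon-β, read 36.3, 25.1 and 19.0 after LPS, 32.7, 42.4 and 28.3 in CstF-64 cells and 27.9, 29.0 and 49.6 in untreated cells, close to that limit. No change in interferon mRNA was therefore detectable at 18 h at this signal. Of the 4 receptor genes, Ifngr1 fell by 0.60 after LPS (SE 0.17, adjusted p = 0.0363) and none rose.

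Further down the pathway, 3 of 5 measured signal transducers rose after LPS. Irf9, the DNA-binding subunit of the ISRE complex, rose by 1.37 (SE 0.16, adjusted p = 0.000318), and Jak2 and Jak1 rose by 0.79 (adjusted p = 0.00505) and 0.51 (adjusted p = 0.0065). Stat2 missed the threshold (0.93, SE 0.28, adjusted p = 0.0517). Of 6 measured genes that induce interferon, 3 rose, among them Irf7, a factor needed for most interferon-α genes, at 2459.2, 2385.3 and 2592.5 after LPS, 135.3, 113.5 and 112.5 in CstF-64 cells and 123.2, 77.7 and 90.0 in untreated cells (4.52, SE 0.15, adjusted p = 5.55e-07). Of 4 feedback genes, Socs3, an inhibitor of JAK signalling, rose at least 48.1-fold (adjusted p = 3.62e-07). None of these pathway genes was called by limma in CstF-64 cells, where 1, a feedback gene, was lower at an unadjusted p under 0.05.

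The summed level of the 10 macrophage markers was 22477.4 to 24584.1 on the LPS arrays, 16929.7 to 21007.5 on the CstF-64 arrays and 16159.8 to 21510.0 on the untreated arrays. After LPS, Adgre1, Itgam, Fcgr1 and Cd14 rose and Csf1r fell. The 6 T cell markers summed to 40.0 to 47.8 after LPS, 42.9 to 64 in CstF-64 cells and 42.8 to 55.5 in untreated cells. Among plasmacytoid dendritic cell markers, Bst2 is a member and was left out here, and Tcf4 read 134.0 to 249.8 over all arrays. Of the markers of B cells (3 measured), natural killer cells (3), plasmacytoid dendritic cells (3), fibroblasts (5) and neutrophils (4), 1, 2, 2, 3 and 1 lay at or below the background limit on all arrays. Among these, Dcn, a proteoglycan gene, rose after LPS to 34.4, 46.4 and 61.7, against 4.9, 3.5 and 13.4 in untreated cells (adjusted p = 0.00108), and S100a8, a calcium-binding protein gene of neutrophils and activated monocytes, rose to 22.9, 35.0 and 41.3, against 1.9, 13.4 and 10.7 (adjusted p = 0.0222). The collagen markers Col1a1 and Col3a1 were at or below the limit on all arrays, while Col1a2 read 39.9 to 59.8 after LPS, 50.8 to 67.9 in CstF-64 cells and 48.8 to 62.5 in untreated cells. None of the markers of any cell type was called by limma in CstF-64 cells. At an unadjusted p under 0.05, 2 macrophage markers were lower there, and 0 markers of the other cell types differed. The part of all these markers in the results above was not tested.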

How the data were processed

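The deposited values were intensities on a linear scale, 1 for each of 22690 probe sets on each of 9 arrays, made by the authors; the sources used here do not name their software, background correction or normalization. Per the labels, RNA was isolated with Ultraspec and the arrays were run at a university core facility. The 2% trimmed means of the deposited columns lay between 150.0482 and 150.0648, so values were kept as deposited. Exact zeros numbered 38. With 3 arrays a group, precision is limited by their number.

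Probe sets were named from the platform annotation, with symbols updated through RefSeq on GRCm38.p6: 20380 carried 1 gene, 691 several and 1555 none. The 64 control probe sets were left out. Log2(intensity + 13), the pseudocount being 0.25 of the median of 50.2, was fitted with limma 3.58.1 in R 4.3.3 (lmFit on all 9 arrays, eBayes with an intensity trend, two-sided), with Benjamini-Hochberg adjustment over 22626 probe sets and a threshold of 0.05. The step was run on simulated data with independent noise and no outlying array, only to check that planted changes were found. The background limit was the highest value of 27 Bacillus control probe sets (median 2.2).

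Values on every array are given for the brightest probe set of the 2 members with the largest change after LPS in each role group. The same holds for probe sets called in CstF-64 cells or called lower. Genes whose probe sets differ in their call have every probe set shown, some dimmer ones without CstF-64 or untreated values. Other members are described more briefly. A few genes outside this rule have array values where these bear on a count (Ube2l6, Ifit3, Oas2, Isg20, Adar, Eif2ak2 and Pml). Of these, only Isg20 and Pml have values on every array. The members and all gene lists were chosen with earlier results of these data known. Same-numbered arrays of different groups had deviations that correlated at −0.06 to 0.16, not all over 0.1, so the numbers were not taken as pairs. Alternatives covered scaling, pseudocount, variance model, array weights, a filter on dim probe sets, the arrays in the fit, a replicate block, leaving out each array, a 2-fold minimum and 1 probe set a gene; leaving out array 1 of both the LPS and CstF-64 groups was added after seeing the data. Promoter sequences are RefSeq's.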

Additional observations from a re-analysis of the deposited data

How the results depend on the processing

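After LPS, 36 of the 42 calls kept an adjusted p under 0.05 in each of the 19 other settings of the fit they entered (a dim Rtp4 probe set entered 18). The other 6 were lost under some settings of the fit: Ube2l6 (adjusted p 0.00883 to 0.0953), Oas2 (0.0053 to 0.153), Adar (0.00367 to 0.118), Parp12 (up to 0.0615, lost without untreated array 3), and single probe sets of Tor3a (0.0132 to 0.116) and Samhd1 (0.0152 to 0.152, the fall). A 2-fold minimum, which is no setting of the fit, kept 37 of the 42. Counts of calls ranged from 36 to 42 when 1 array was left out and from 40 to 46 under other settings of the fit. After LPS, 6 probe sets without a call gained one under some settings, namely both of Trim21 and 1 each of Eif2ak2, Ifitm3, Trim25 and Epsti1. For LPS against CstF-64, 35 of 40 calls held in each setting of the fit, a 2-fold minimum kept 36, and counts ran from 36 to 43 under the settings of the fit. No called change reversed. For CstF-64 against untreated, the count of 2 became 4 with array weights (3 higher, 1 lower), 6 without array 1 of both the LPS and CstF-64 groups (5 higher, 1 lower), 1 with 1 probe set a gene, and 0 with the replicate block, and it ran from 0 to 3 when 1 array was left out; the cause was not tested. In that comparison the calls gained were of Samhd1, Isg20, Cmpk2, Dhx58 and Trim30a. With the replicate block the LPS count stayed at 42. Scaling moved the split of all calls after LPS: 1341 were higher and 2414 lower as deposited, 1528 and 1780 after quantile normalization, and 2228 and 1455 after median centring, which moved the median of all probe sets to 0.12 and that of the members to 1.74. For LPS against CstF-64 the share of calls that were higher was 38.0%, 47.8% and 62.7% under these 3 scalings. The ISRE count of 17 genes became 14 with 1 more base required. The 10 member probe sets at or below the background limit on all untreated arrays have lower bounds only, which take in LPS array 1. The dim Rtp4 probe set among them has no fold at all.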

Other observations

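Probe sets shared with other genes were left out of the counts above, since their signal cannot be assigned to 1 gene. The probe set shared by Isg15, the ubiquitin-like modifier itself, and Gm9706 read 1039.9, 550.7 and 720.5 after LPS, 50.4, 40.9 and 30.0 in CstF-64 cells and 38.3, 34.1 and 39.8 in untreated cells. Its LPS arrays lay far above the others, with a log2 change of 3.91 (limma adjusted p = 6.33e-06), and CstF-64 and untreated arrays overlapped. Of 3 probe sets shared by Ifi203 and related sequences, 2 rose after LPS, by 2.54 (adjusted p = 0.000678) and 1.08 (adjusted p = 0.00975), and the dimmest did not pass the test (0.68, adjusted p = 0.0934). A probe set shared by Ifi204 and 3 other HIN-200 genes, Mndal, Ifi211 and Ifi205, rose by 2.16 (adjusted p = 0.000166). A probe set shared by Trim30a and Trim30d rose by 1.85 (adjusted p = 0.000303). None of these was called in CstF-64 cells.

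Among the macrophage markers, Adgre1, which encodes F4/80, had fitted changes of opposite sign in LPS and CstF-64 cells. It read 1171.1, 1796.6 and 2093.7 after LPS, 230.6, 209.5 and 222.8 in CstF-64 cells and 416.3, 608.1 and 507.5 in untreated cells. The groups did not overlap. The log2 change was 1.67 after LPS (adjusted p = 0.000559) and −1.15 in CstF-64 cells (adjusted p = 0.0777), and the second did not pass the test.

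The brighter Cstf2 probe set fell by 0.74 on the log2 scale after LPS (SE 0.13, limma adjusted p = 0.00343), to 220.5, 248.1 and 195.9, against 397.8, 363.1 and 372.2 in untreated cells. The dimmer one read 136.1, 107.0 and 113.0 after LPS, against 114.7, 100.2 and 134.1 in untreated cells, and overlapped.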
